A study of Mus musculus with 10 samples.

Results

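The age difference described here is that between 2 libraries of wild-type (WT) mouse auditory cortex at 1 year and 3 at 1 month, the 5 WT libraries among 10 in the series. They were chosen by genotype and age as the labels give them, and every gene in the tables was used. The mice were male C57BL/6, and per the labels RNA was taken from dissected auditory cortex, the cortical area that receives sound input. The other 5 libraries, 3 at 1 month and 2 at 1 year, came from mice with 1 altered allele (het) of the histone methyltransferase gene Ash1l. They show the age difference in other libraries and share the estimate of the spread. The series title calls the WT mice littermates of the het mice. The sources used here do not say that the libraries came from separate animals, and p-values reflect the spread among libraries, which may be technical.

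At 1 month the mouse cortex has its layers and long-range connections, but myelin is still being added and synapses are still being pruned. Growth cone proteins and guidance receptors, which steer axons during development, decline as circuits mature, whereas complement and astrocyte reactivity genes are known to increase in the ageing brain. Oligodendrocyte precursors go on dividing in the adult cortex and pass through a short premyelinating stage, marked by the receptor Gpr17, before they form myelin.

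The WT libraries held 13502649 to 17252964 counts, and 21824 of the 34745 genes listed had a count in at least 1 of them. The first principal component of the 5 libraries held 37.7% of the variance and separated the ages, with -26.8, -12.1 and -21.1 in 1 month replicates 1 to 3 and 21.7 and 38.2 at 1 year. WT 1 month replicate 2 stood apart on the second component, at -39.2 against 0.36 to 17.1 in the other 4. Its share of mitochondrial counts, 13%, was near the 12% and 12.8% at 1 year and above the 10.01% and 9.42% of the other 1 month libraries. It recurs below for the myelin, ribosomal and mitochondrial lists, whose levels in that library lay beside the 1 year libraries. Other lists shared this pattern, such as the microglia list. Its mean log2 CPM relative to the 5 WT libraries was 0.07 there, against 0.08 and 0.10 at 1 year. The Ash1l transcript, the gene altered in het, was at 165 to 225 normalized CPM in the 5 WT libraries and at 131 to 162 in the 5 het libraries, with no overlap. Normalized CPM are library-scaled read counts (CPM, with scaling by the trimmed mean of M-values), and they are not divided by gene length. The labelled tissue was checked against markers of its cell types. Slc17a7, the vesicular glutamate transporter of cortical excitatory neurons, was at 1406, 1257 and 1467 CPM at 1 month and 1118 and 967 at 1 year. Inhibitory neuron markers (Gad1, Gad2 and Slc32a1) summed to 432 to 551 CPM at 1 month and 427 to 464 at 1 year. Choroid plexus markers (Ttr, Folr1 and Kl) summed to 3.87 to 11.9 and 10.5 to 11.6 CPM, and no marker of any cell type was at 0 in all 5 libraries. Markers of the thalamus (Prkcd, Lef1 and Gng8) summed to 9.70 to 13.4 CPM at 1 month and 13.3 to 14.1 at 1 year, and those of the dentate gyrus (Prox1, Dsp and Lct) to 11.9 to 14.0 and 9.77 to 10.2, lower at 1 year with no overlap. The summed striatal markers are not reported here. Of 18 genes of neighbouring brain regions, striatum included, 1 was higher and 2 were lower at an unadjusted p below 0.05, beside 7.41% and 7.89% of all genes, with a median log2 fold change of -0.14 that became 0.07 without replicate 1 at 1 month. The part of dissection in the results below was not tested.

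In the WT comparison 9 genes rose (0.0562% of 16023 tested) and 6 fell (0.0374%) at a Benjamini-Hochberg adjusted p below 0.05 in edgeR's quasi-likelihood test. Of these, 14 are described. Among those that fell were Sema6a and Nrep, which belong to axon growth and guidance, and Gpr17, the receptor of the premyelinating stage. Among those that rose were the histocompatibility gene H2-T22, the glycosyltransferase gene Galnt13, the ribosomal protein gene Rpl12 and several gene copies. The number called differed widely between settings. It was 170 higher (1.07%) and 207 lower (1.3%) without het 1 month replicate 1, a library outside the contrast. It was 51 (0.318%) and 46 (0.287%) without replicate 2 at 1 month, 49 (0.317%) and 30 (0.194%) with the WT libraries alone, and 115 (0.718%) and 125 (0.78%) with DESeq2. Each other library left out gave 4 to 9 higher and 3 to 9 lower genes, with 6 and 3 without replicate 1 or 3 at 1 month, 5 and 5 without replicate 2 at 1 year, and 4 and 4 without het 1 month replicate 3. Of the 14 genes, 6 lost the call without that het library and 7 without either het library at 1 year. The gene lists below are therefore described also by the looser count of members with an unadjusted p below 0.05, which 1187 genes passed on the higher side (7.41%) and 1265 on the lower side (7.89%), and by the count whose libraries do not overlap between the ages, 2907 higher (18.1%) and 2953 lower (18.4%). The median log2 fold change over all genes tested was 0.01.

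**Figure D1:**
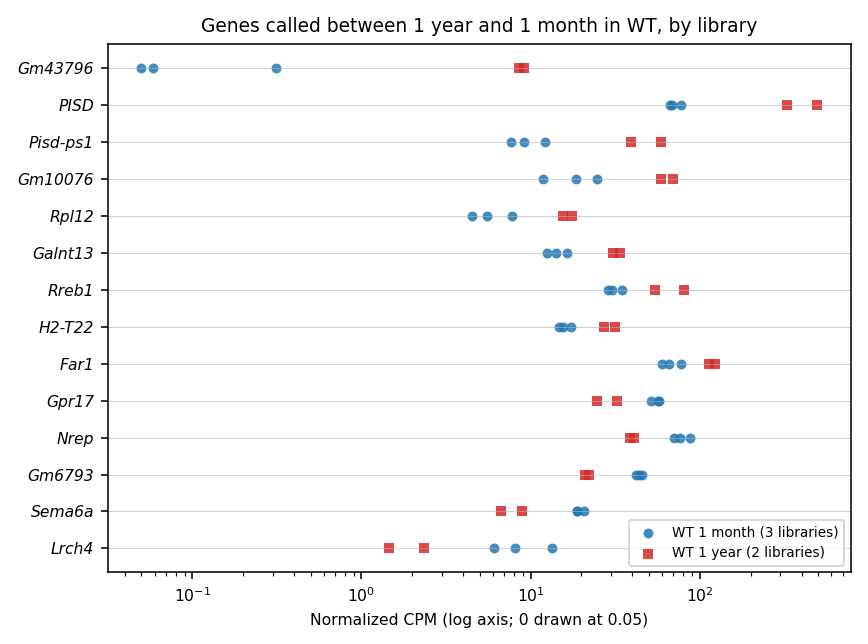
Normalized CPM (log axis, with 0 drawn at 0.05) of 14 of the genes called in WT, 1 point per library, circles for the 3 libraries at 1 month and squares for the 2 at 1 year. In each gene shown the libraries of the ages do not overlap, from Gm43796 at the top, nearly absent at 1 month, to Lrch4 at the bottom.

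Genes of axon growth and guidance were lower at 1 year. Of 52 listed members tested, 27 were lower at an unadjusted p below 0.05 and 0 higher, beside the 7.89% and 7.41% over all genes. The median log2 fold change of the list was -0.35, and 44 of the 52 lay below 0. In 33 members every 1 year library was below every 1 month library, and in 2 it was above. The shares of all genes were 18.4% below and 18.1% above. Over all genes 2 members fell in edgeR, Sema6a and Nrep, and without het 1 month replicate 1 the number was 10. Leaving out WT 1 year replicate 2 gave 12 in place of 27, and leaving out any other WT library gave 21 to 25. The 2 that fell became 0 without replicate 2 at 1 year or replicate 3 at 1 month, and 1 without replicate 1 at 1 month or replicate 1 at 1 year.

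Sema6a, a transmembrane semaphorin that repels growing axons, stood at 18.9, 20.7 and 18.7 CPM in the 3 libraries at 1 month and at 8.86 and 6.64 at 1 year. Both 1 year libraries were well below all 3 at 1 month, and Sema6a fell by 1.33 on the log2 scale (SE 0.18, edgeR adjusted p = 0.0211). Nrep, a neuronal protein found in growing and regenerating neurons, stood at 70.0, 87.8 and 76.5 CPM at 1 month and at 38.6 and 40.7 at 1 year. It fell by 0.98 (SE 0.13, edgeR adjusted p = 0.0211). Sema6a lost its call without replicate 1 or 3 at 1 month or replicate 2 at 1 year (edgeR adjusted p up to 0.191). Nrep lost it without replicate 3 at 1 month or either 1 year library (edgeR adjusted p up to 0.135).

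Described by the role of the members, a grouping made after the values had been seen, the lower values were spread over ligands, receptors and the growth cone itself. Among secreted and membrane-bound ligands, the repellent Slit2 was at 54.1, 49.2 and 56.3 CPM at 1 month and 39.8 and 33.1 at 1 year. The ephrin Efna5, which guides axons by contact, was at 36.6, 34.6 and 33.5 against 23.8 and 24.4 CPM. In neither gene did the ages overlap, and the log2 fold changes were -0.55 ± 0.14 (SE) for Slit2 and -0.53 ± 0.13 for Efna5. Of the 10 ephrins and Eph receptors tested 4 were lower at an unadjusted p below 0.05, and of the 9 semaphorins, plexins and neuropilins 3 were.

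Receptors showed the same direction. Robo1 and Robo2, the receptors of Slit proteins, had log2 fold changes of -0.56 ± 0.18 (SE) and -0.46 ± 0.12, and 3 of 5 members of the Slit and Robo group were lower at an unadjusted p below 0.05. Dcc, a receptor for netrin, was at 9.61, 7.40 and 10.3 CPM at 1 month and 5.27 and 4.50 at 1 year, a log2 fold change of -0.90 ± 0.29. Of 6 tested netrins and netrin receptors 5 were lower at an unadjusted p below 0.05, Ntn1 and Ntn4 among the ligands and Unc5c and Unc5d beside Dcc among the receptors. The Eph receptor Epha3 was at -0.79 ± 0.20. None of Robo1, Robo2, Dcc, Unc5c, Unc5d or Epha3 passed over all genes in edgeR.

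Of the growth cone membrane proteins 4 of 5 tested were lower at an unadjusted p below 0.05. Marcksl1, which binds actin and membrane lipids, stood at 75, 95.7 and 82.2 CPM at 1 month and at 43.5 and 29.0 at 1 year. Its log2 fold change was -1.22 ± 0.28 (SE), which did not pass over all genes (edgeR adjusted p = 0.136). Marcks, a relative of Marcksl1, was at -0.40 ± 0.15 and Basp1, a membrane protein of axon endings, at -0.32 ± 0.12. Gap43, the best known growth cone protein, was at 234, 263 and 239 CPM at 1 month and 239 and 190 at 1 year, and its ages overlapped. Among cytoskeletal genes, their regulators and the transcription factors Sox4 and Sox11, 6 of 12 were lower at an unadjusted p below 0.05. They included Tubb3, Tuba1a, Stmn2 and the collapsin response mediators Crmp1, Dpysl3 and Dpysl5. The transcript of doublecortin, Dcx, was not among them: it stood at 63.4, 79.0 and 59.9 CPM at 1 month and 66.5 and 99.9 at 1 year, a log2 fold change of 0.30 ± 0.16 that did not pass the test. Sox11, a transcription factor of immature neurons, was also above 0 without passing, at 0.28 ± 0.19.

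The het libraries, which share no library with the WT contrast but do share the fit and its spread, gave values on the same side. All 27 growth and guidance genes lower in WT were below 0 in het, and 22 of them had an unadjusted p below 0.05 there, beside 12.8% of all genes on the lower side in het. For comparison, of all 2452 genes with a WT unadjusted p below 0.05, 2234 had the same sign in het and 1314 had the same sign and an unadjusted p below 0.05 there. Sema6a was at -1.24 ± 0.18 in het and Marcksl1 at -1.66 ± 0.28, and both passed over all genes there (edgeR adjusted p = 0.0151 and 0.03). Nrep was at -0.42 ± 0.13 in het against -0.98 ± 0.13 in WT (edgeR unadjusted p = 0.00989 for the difference), which did not pass over all genes (adjusted p = 0.9996).

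**Figure D2:**
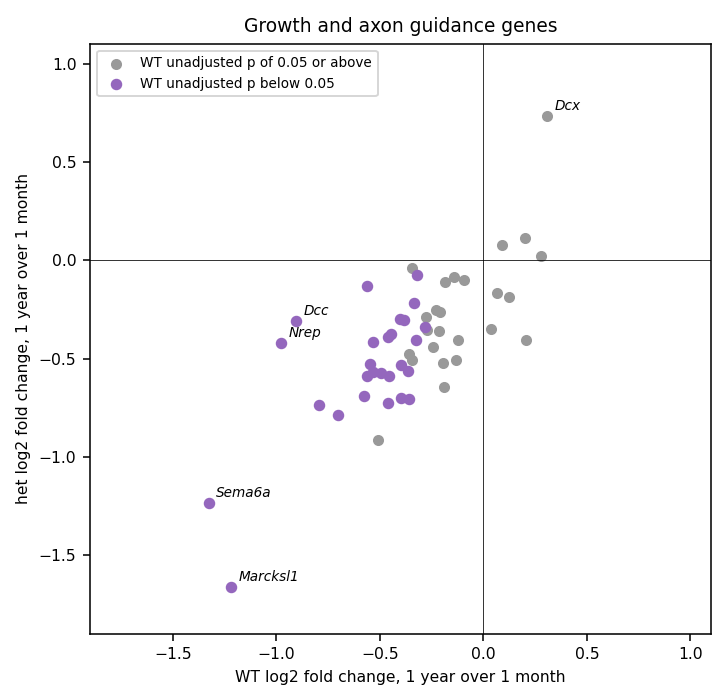
Each point is 1 of the 52 tested growth and axon guidance genes, with its log2 fold change from 1 month to 1 year in WT on the horizontal axis and in het on the vertical axis. The 27 members with a WT unadjusted p below 0.05 (purple) all lie below 0 on both axes, with Marcksl1 and Sema6a farthest out, and Dcx is the highest point.

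Most genes of the oligodendrocyte lineage lay on the lower side at 1 year, with exceptions in each list and most of them among the myelin genes. Gpr17 stood at 56.9, 51.8 and 57.4 CPM at 1 month and at 32.6 and 24.6 at 1 year, so the ages did not overlap. It fell by 0.95 on the log2 scale (SE 0.15, edgeR adjusted p = 0.0394), and in het it was at -1.16 ± 0.15 (edgeR adjusted p = 0.00775). The WT call was lost without replicate 1 or 3 at 1 month or replicate 2 at 1 year (edgeR adjusted p up to 0.344). Of 20 precursor genes 18 lay below 0, with a median of -0.18. At an unadjusted p below 0.05, 3 were lower and 1 was higher (Matn4, at 0.44 ± 0.16), beside 7.89% and 7.41% of all genes. Pdgfra, the growth factor receptor that defines precursors, was at 78.0, 71.2 and 76.0 CPM at 1 month and 58.2 and 56.2 at 1 year, with no overlap and a log2 fold change of -0.39 ± 0.19 that did not pass. Cspg4, another precursor marker, overlapped between the ages at 17.2, 14.1 and 18.6 against 14.3 and 15.0 CPM. Of 13 genes of newly formed oligodendrocytes 3 were lower and 1 higher, Tns3 at 0.35 ± 0.10, at an unadjusted p below 0.05. The 3 became 5 without replicate 2 at 1 month and 1 without replicate 3 at 1 month or replicate 1 at 1 year. Enpp6, which marks cells that have just begun to myelinate, was at 3.43, 3.07 and 3.52 CPM at 1 month and 1.54 and 2.29 at 1 year.

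Of 30 myelin genes 10 were lower and 4 higher at an unadjusted p below 0.05, beside 7.89% and 7.41% of all genes. The list median was -0.24 in WT and 0.07 in het. Cldn11, the claudin that seals the myelin sheath, stood at 85.9, 52.6 and 72.7 CPM at 1 month and 32.9 and 33.7 at 1 year. Its log2 fold change was -1.08 ± 0.20 (SE), short of the threshold (edgeR adjusted p = 0.0781). The sheath proteins Mog and Mag were at -0.74 ± 0.19 and -0.58 ± 0.17, and neither passed over all genes. Mbp, which compacts the sheath, overlapped between the ages at 320, 238 and 303 CPM against 353 and 287. On the higher side were Hapln2, a link protein at nodes of Ranvier, at 9.36, 5.24 and 8.11 CPM against 15.1 and 17.1, and Anln, an actin-binding protein of myelin, at 15.5, 7.63 and 12.9 against 22 and 22.1. The mean log2 CPM of the myelin list, relative to the 5 WT libraries, was -0.15 in WT 1 month replicate 2, below -0.07 and -0.10 at 1 year, so the list overlapped between the ages. The WT median was -0.11 without replicate 3 at 1 month. The 4 higher members became 1 without either 1 year library and 2 without replicate 3 at 1 month. In bulk tissue fewer cells of a type and less RNA per cell cannot be told apart.

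**Figure D3:**
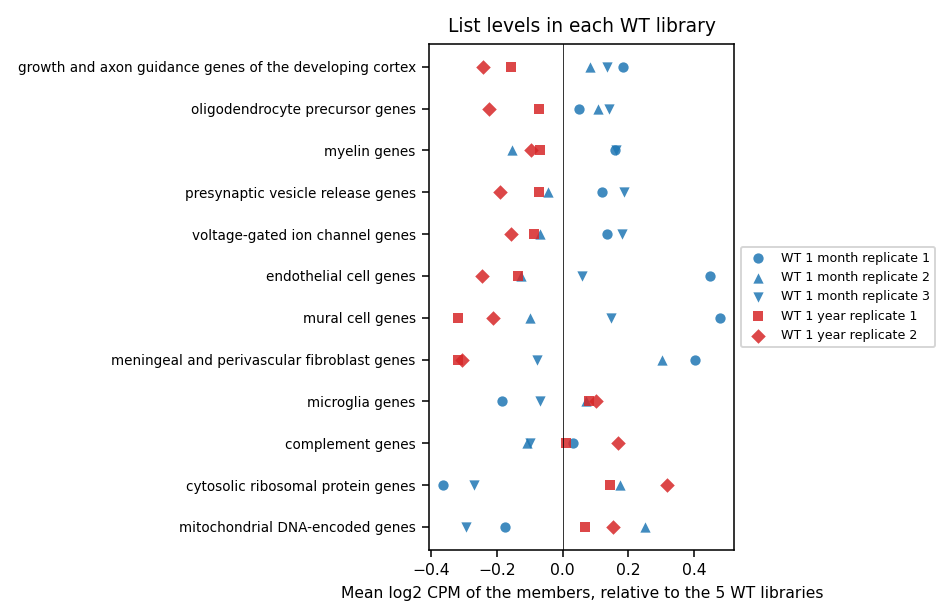
Mean log2 CPM of the members of 12 gene lists in each WT library, relative to the mean of the 5, with circles and triangles for 1 month and squares and diamonds for 1 year. The ages separate in the growth, precursor and fibroblast lists, among others. By contrast, 1 month replicate 2 (upward triangle) lies with the 1 year libraries in the myelin, ribosomal and mitochondrial lists. In the microglia list it lies just below them.

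Most synaptic and channel genes tested lay below 0. Of 39 presynaptic release genes 12 were lower and 0 higher at an unadjusted p below 0.05, beside 7.89% and 7.41% of all genes. Of the 39, 34 lay below 0, and the median was -0.21 (-0.30 in het). In 20 of the 39 the 1 year libraries were below every 1 month library and in 0 above. The shares of all genes were 18.4% below and 18.1% above. Over all genes 1 presynaptic member fell in edgeR, and it is not described here. Syp, a membrane protein of synaptic vesicles, was at 1760, 1791 and 1802 CPM at 1 month and 1307 and 1173 at 1 year. Its log2 fold change was -0.52 ± 0.15 (SE) and did not pass over all genes (edgeR adjusted p = 0.171). Syt1, the calcium sensor of release, was at 2118, 1697 and 1995 CPM against 1460 and 1288, and Sv2a, another vesicle protein, at 438, 347 and 445 against 298 and 274. In these 3 genes the ages did not overlap.

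Receptor genes showed the same side. Of 46 glutamate receptor and postsynaptic genes 11 were lower and 2 higher at an unadjusted p below 0.05, with a median of -0.18. The shares of all genes at that threshold were 7.89% lower and 7.41% higher. Grin2b, the NMDA receptor subunit that predominates early in development, was at 788, 642 and 755 CPM at 1 month and 463 and 454 at 1 year, a log2 fold change of -0.67 ± 0.18. Grin2a, the subunit that predominates later, was at 293, 267 and 285 against 205 and 224 CPM, a log2 fold change of -0.39 ± 0.10. Both NMDA receptor genes were thus lower in both 1 year libraries. Grik2, a kainate receptor gene, was on the higher side at 0.44 ± 0.15. Of 34 genes of GABA receptors and inhibitory neurons 11 were lower and 0 higher at an unadjusted p below 0.05, with a median of -0.21, among them the receptor subunit Gabrg3 (-0.54 ± 0.15).

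Of 39 voltage-gated channel genes 12 were lower and 0 higher at an unadjusted p below 0.05, beside 7.89% and 7.41% of all genes. The list median was -0.23 in WT and -0.07 in het. Kcnq3, a subunit of the potassium channel that carries the M current, was at 388, 312 and 372 CPM at 1 month and 253 and 249 at 1 year. Its relative Kcnq5 was at 124, 106 and 112 against 82.8 and 76.1 CPM, and Kcnd2, an A-type potassium channel gene, at 94.1, 91.4 and 96.4 against 69.5 and 63.0. In each of the 3 the ages did not overlap, the log2 fold change was between -0.52 and -0.50, and the edgeR adjusted p was 0.129. None of the glutamate, GABA or channel genes named here passed over all genes. Without WT 1 year replicate 2 the counts of lower members became 3 for presynaptic, 4 for glutamate, 3 for GABA and 4 for channel genes. Without WT 1 month replicate 3 they became 5, 7, 6 and 7, and without replicate 2 at 1 month they were 16, 16, 14 and 16. Without WT 1 month replicate 1 the GABA count was 7, and without replicate 1 at 1 year also 7. The glutamate median was -0.29 without replicate 1 at 1 year. Immediate early genes, which follow neuronal activity, had 0 of 30 members at an unadjusted p below 0.05 in edgeR and a median of 0.04 in WT, against -0.52 in het. At the stricter adjusted p below 0.05 neither edgeR nor DESeq2 called any of them in WT. Without replicate 1 at 1 month 2 were lower at an unadjusted p below 0.05. The WT median turned to -0.06 in that omission and to -0.10 without replicate 1 at 1 year. Arc ranged from 65.6 to 139 CPM at 1 month and was at 208 and 177 at 1 year (edgeR unadjusted p = 0.36).

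Genes of vessels and their coverings were lower in the 1 year libraries. Of 17 mural cell genes (pericytes and smooth muscle) 7 were lower and 0 higher at an unadjusted p below 0.05, with a median of -0.62. Of 25 endothelial genes 7 were lower and 0 higher, with a median of -0.26. The shares of all genes at that threshold were 7.89% lower and 7.41% higher. Rgs5, a pericyte marker, was at 80.0, 51.5 and 55.3 CPM at 1 month and 37.6 and 39.1 at 1 year, a log2 fold change of -0.70 ± 0.17. Cdh5, the cadherin of endothelial junctions, was at 9.43, 5.16 and 6.64 against 3.88 and 2.71 CPM, and Abcb1a, a drug pump of the blood-brain barrier, at 31.9, 15.0 and 22.4 against 12.3 and 13.4. In Rgs5, Cdh5 and Abcb1a the ages did not overlap, and WT 1 month replicate 1 was the highest library in each. The mean log2 CPM of the endothelial list was 0.45 in that library and -0.13 and 0.06 in the other 1 month libraries, against -0.14 and -0.25 at 1 year. The number of lower mural genes was 2 without replicate 1 at 1 year, 4 without replicate 1 at 1 month and 10 without replicate 2 at 1 month. Without replicate 1 at 1 month the medians were -0.36 for mural and -0.14 for endothelial genes. The endothelial median was -0.40 without replicate 2 at 1 month. In het the medians were -0.35 for mural and -0.12 for endothelial genes.

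Of 20 genes of meningeal and perivascular fibroblasts 9 were lower and 0 higher at an unadjusted p below 0.05. The shares of all genes were 7.89% and 7.41%. The list median was -0.61 in WT and -0.18 in het. Col1a1, a fibrillar collagen gene, was at 5.06, 4.04 and 3.23 CPM at 1 month and 1.68 and 2.57 at 1 year. The 9 became 0 without replicate 1 at 1 month, 3 without replicate 2 at 1 month, 1 without replicate 1 at 1 year and 4 without replicate 2 at 1 year. The list's mean log2 CPM was 0.40, 0.30 and -0.08 at 1 month and -0.32 and -0.31 at 1 year. The fibroblast markers Dcn, Lum and Col1a1 together summed to 13.2 to 20.1 CPM at 1 month and 9.98 to 14.2 at 1 year. The part of meninges carried along in the dissection was not tested.

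Matrix genes went in both directions. Of 36 collagen and basement membrane genes 10 were lower and 4 higher at an unadjusted p below 0.05. The shares of all genes were 7.89% and 7.41%. The basement membrane genes Nid2, Lama4 and Lama1 were at -1.28 ± 0.34, -0.59 ± 0.20 and -1.03 ± 0.39. The 4 on the higher side were Col6a1, Col6a2, Col12a1 and Sparc. Col6a2, a chain of the beaded collagen VI, was at 22.7, 15.8 and 17.8 CPM at 1 month and 28 and 32.1 at 1 year, a log2 fold change of 0.68 ± 0.16 in WT and 0.99 ± 0.16 in het. Sparc, a secreted collagen-binding protein, was at 133, 139 and 144 against 197 and 225 CPM, a log2 fold change of 0.60 ± 0.11 (edgeR adjusted p = 0.0821). In Col6a2 and Sparc the ages did not overlap. The 10 lower members became 2 without replicate 1 at 1 month, 4 without replicate 1 at 1 year and 4 without replicate 2 at 1 year, and the 4 higher members became 7 without replicate 1 at 1 month.

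Immune and glial lists held genes on both sides. Of 38 genes of antigen presentation and interferon response 4 were higher and 3 lower at an unadjusted p below 0.05. These counts are near the shares over all genes, 7.41% and 7.89%. The list median was 0.09, and it was 0.32 without replicate 1 at 1 month, 0.18 without replicate 2 and 0.02 without replicate 3. The 4 became 1 without replicate 1 at 1 year, and the 3 became 0 without replicate 1 at 1 month and 1 without either 1 year library. The lower ones were the interferon-induced genes Isg15, Ifit1 and Oas1a, all at low levels. The log2 fold change of Ifit1 was -1.42 ± 0.56, and Isg15 was at 1.12, 1.05 and 0.294 CPM at 1 month and 0.146 and 0.214 at 1 year. A single member of the list passed over all genes. H2-T22, a nonclassical class I histocompatibility gene (GRCm38 chromosome 17, 36037128 to 36042747), stood at 14.8, 17.4 and 15.5 CPM at 1 month and 27.2 and 31.7 at 1 year. It rose by 0.89 ± 0.14 on the log2 scale (SE, edgeR adjusted p = 0.0394) and by 1.03 ± 0.14 in het (edgeR adjusted p = 0.00946). Of the 50-base stretches in its annotated transcripts 34.5% also occur in other genes, so its count is uncertain. The related H2-T10 lay between 0.299 and 1.46 CPM in the 5 WT libraries. The call held without replicate 2 at 1 month and was lost without each of the other 4 WT libraries (edgeR adjusted p up to 0.316).

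Of 20 complement genes 6 were higher and 3 lower at an unadjusted p below 0.05, beside 7.41% and 7.89% of all genes. C4b, a complement component made by ageing astrocytes and oligodendrocytes, was at 6.24, 5.61 and 4.29 CPM at 1 month and 9.81 and 16.7 at 1 year. Its log2 fold change was 1.30 ± 0.24, short of the threshold in WT (edgeR adjusted p = 0.0714). In het it rose by 0.99 ± 0.23 (edgeR adjusted p = 0.0447). C4b shares 34.6% of its 50-base stretches with other genes, and the related C4a, at 1.37, 1.94 and 1.53 against 3.37 and 2.86 CPM, was on the same side. The C1q subunits C1qa and C1qb, made by microglia, were at 0.44 ± 0.11 and 0.47 ± 0.15 in WT and at 0.09 ± 0.11 and 0.10 ± 0.15 in het, and the differences between the genotypes did not pass. On the lower side was Cd55, a regulator that restrains complement, at -0.97 ± 0.27. The 6 higher complement genes became 2 without replicate 2 at 1 year, and the 3 lower ones became 1 without replicate 1 at 1 year.

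Of 24 microglia genes 6 were higher and 1 lower at an unadjusted p below 0.05, beside 7.41% and 7.89% of all genes. C1qa and C1qb are counted both here and among the complement genes. In het 0 microglia genes were higher and 6 lower, beside 12.2% and 12.8% of all genes. The list median was 0.18 in WT and -0.09 in het, and the difference between the genotypes was not tested over the list. In WT the lower member was Csf1r, the receptor on which microglia depend, at 89.9, 88.1 and 104 CPM at 1 month and 78.9 and 69.2 at 1 year. The marker Cx3cr1 overlapped between the ages, at 43.8, 59.9 and 53.5 against 50.9 and 46.6 CPM. The higher members, such as Ctss and Fcer1g, encode a lysosomal protease and an antibody receptor chain. The 6 became 1 without replicate 2 at 1 year, and 4 without replicate 1 or 3 at 1 month. Of 21 reactive astrocyte genes 4 were higher and 2 lower at an unadjusted p below 0.05, 11 lay above 0 and 10 below, and the median was 0.01, or -0.06 without replicate 2 at 1 year. The lower ones were the receptor gene S1pr3 at -0.61 ± 0.21 and the filament gene Nes at -0.70 ± 0.28. The 2 became 0 without replicate 2 at 1 year and 1 without replicate 2 at 1 month. Gfap, the filament of reactive astrocytes, was at 73.0, 129 and 84.1 CPM at 1 month and 176 and 225 at 1 year, a log2 fold change of 1.08 ± 0.24 that did not pass (edgeR adjusted p = 0.129). Of 20 general astrocyte genes 4 were higher and 1 lower at an unadjusted p below 0.05. In het 0 of these were higher and 3 lower, and the list median was 0.06 in WT and -0.11 in het. In WT Glul, which makes glutamine from glutamate, was at 1758, 1966 and 1883 CPM against 2397 and 2358. Gjb6, a gap junction gene, was at 68.6, 72.2 and 73.6 against 107 and 92.9. The 4 became 1 without replicate 1 at 1 month and 2 without either 1 year library, and the list's mean overlapped between the ages.

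Lcn2, a secreted protein of inflamed astrocytes, stood at 0.512 and 9.93 CPM in the 1 year replicates and at or under 0.25 at 1 month. Its difference thus rests on WT 1 year replicate 2, where the reactive astrocyte list also had its highest mean (0.28, against -0.13 to -0.01 in the other 4 WT libraries).

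**Figure D4:**
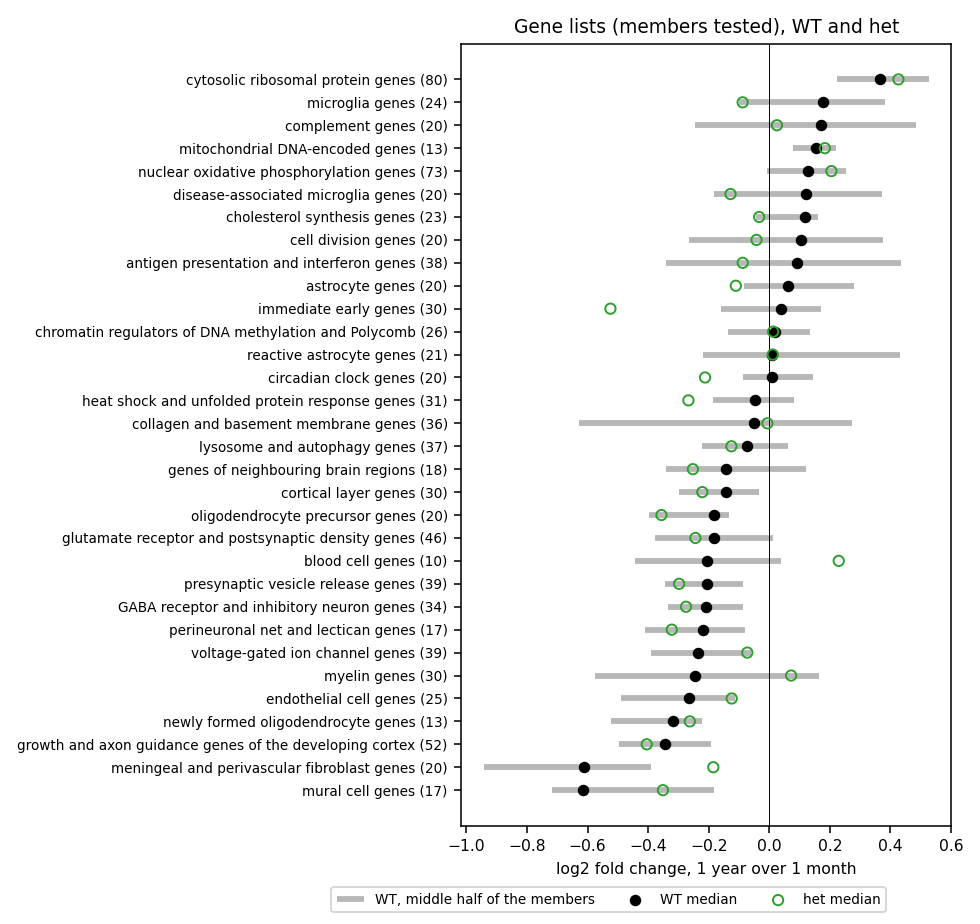
Median log2 fold change from 1 month to 1 year of the members of 32 gene lists, with the number of members tested in brackets. Filled circles are WT, with a bar from the lower to the upper quartile of the members, and open circles are het. Ribosomal protein genes lie highest in WT, and mural, fibroblast and growth genes lie lowest.

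Ribosomal protein genes were higher at 1 year. Of 80 members tested 35 were higher and 0 lower at an unadjusted p below 0.05, beside 7.41% and 7.89% of all genes. Of the 80, 74 lay above 0, and the median was 0.36 in WT and 0.43 in het. Rpl12, of the large subunit (GRCm38 chromosome 2, 32961559 to 32965345), stood at 4.49, 7.78 and 5.52 CPM at 1 month and at 15.6 and 17.6 at 1 year. It rose by 1.49 ± 0.24 on the log2 scale (SE, edgeR adjusted p = 0.0422) and by 1.47 ± 0.24 in het (edgeR adjusted p = 0.0195). This WT call, too, was lost without each of the 4 WT libraries other than replicate 2 at 1 month (edgeR adjusted p up to 0.295). Rpl37 was at 33.5, 54.5 and 39.5 against 78.8 and 86.7 CPM, a log2 fold change of 0.96 ± 0.17 (edgeR adjusted p = 0.0714). Of the 50-base stretches of Rpl12 17.6% also occur in other genes, and of those of Rpl37 14.2%. The median of this share over the list was 21.8%, so these counts, too, are uncertain. The Rpl37 copy Rpl37rt was at 91.5, 144 and 102 against 112 and 126 CPM, a log2 fold change of 0.08 ± 0.17. The list's mean log2 CPM was -0.36, 0.17 and -0.27 in 1 month replicates 1 to 3 and 0.14 and 0.32 at 1 year. WT 1 month replicate 2 thus lay above 1 of the 1 year libraries. Without that library 17 members rose in place of 1, the 35 became 59 and the median 0.59. The 35 became 11 without replicate 2 at 1 year, 18 without replicate 1 at 1 month and 22 without replicate 3 at 1 month.

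Among transcripts of the mitochondrial genome, replicate 2 at 1 month was the highest of the 5 libraries. Their mean log2 CPM was -0.17, 0.25 and -0.30 at 1 month and 0.07 and 0.15 at 1 year, and 0 of 13 had an unadjusted p below 0.05 in edgeR. At the stricter adjusted p below 0.05 neither edgeR nor DESeq2 called any of the 13. Without replicate 2 at 1 month the number at an unadjusted p below 0.05 was 7. Of 73 nuclear genes of oxidative phosphorylation 6 were higher at an unadjusted p below 0.05, a share near the 7.41% of all genes, and 0 were lower. The median was 0.13 and ranged from 0.06 without replicate 2 at 1 year to 0.21 without replicate 2 at 1 month. With a correction for gene length it was 0.05. The same correction took the median of the mitochondrial genes from 0.16 to 0.02. The 6 became 24 without replicate 2 at 1 month, 3 without replicate 1 at 1 year and 2 without replicate 1 at 1 month or replicate 2 at 1 year. Of the 6, Cox7c, of complex IV, was at 4.18, 5.46 and 3.41 CPM at 1 month and 7.61 and 8.86 at 1 year. Atp5l, of ATP synthase, was at 3.12, 4.34 and 3.29 against 7.76 and 9.07 CPM. The part of the library differences in mitochondrial share in these results was not tested.

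Several genes called between the ages are copies of others or overlap them, which makes their counts uncertain, and the sequences shown are those they share. Gm10076 (GRCm38 chromosome 14, 105681828 to 105682211) is annotated as a long intergenic noncoding RNA. It stood at 11.8, 24.6 and 18.6 CPM at 1 month and 59.0 and 69.9 at 1 year. It rose by 1.82 ± 0.24 in WT (edgeR adjusted p = 0.0341) and by 1.72 ± 0.24 in het (edgeR adjusted p = 0.0171). Its transcript holds the whole coding sequence of Rpl41 without a difference in 78 bases, as the GENCODE M21 transcripts show, and 69.9% of its 50-base stretches occur in other genes. The WT call was lost without replicate 3 at 1 month or either 1 year library (edgeR adjusted p up to 0.187). Capitals mark the start and stop codons.
Rpl41: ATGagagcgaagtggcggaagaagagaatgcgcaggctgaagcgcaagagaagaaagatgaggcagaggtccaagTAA
Gm10076: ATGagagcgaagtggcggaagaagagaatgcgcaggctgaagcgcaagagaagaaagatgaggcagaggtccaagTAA
Rpl41 itself (chromosome 10, 128548114 to 128549305) overlapped between the ages, at 132, 243 and 170 CPM against 197 and 247, with a log2 fold change of 0.29 ± 0.21. Reads from these 78 bases could be counted for either gene.

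Gm6793 (GRCm38 chromosome 8, 112013433 to 112015036) stood at 44.0, 45.7 and 42.1 CPM at 1 month and 20.9 and 22.2 at 1 year. It fell by 1.03 in WT (SE 0.11, edgeR adjusted p = 0.00407) and by 1.13 in het (SE 0.11, edgeR adjusted p = 0.00236). Of its 50-base stretches 76.3% occur in other genes, mostly in Hnrnpa3, which encodes an RNA-binding protein. Gm6793 also lies within Terf2ip, on the other strand. The first 150 bases of the Hnrnpa3 coding sequence occur in it without a difference, and capitals mark the start codon.
Hnrnpa3: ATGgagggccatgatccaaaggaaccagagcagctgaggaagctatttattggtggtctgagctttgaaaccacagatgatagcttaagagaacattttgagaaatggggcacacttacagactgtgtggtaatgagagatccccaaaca
Gm6793: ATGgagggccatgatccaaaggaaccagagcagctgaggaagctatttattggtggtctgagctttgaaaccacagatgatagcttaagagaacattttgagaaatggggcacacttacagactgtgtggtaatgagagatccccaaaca
Hnrnpa3 was at 109, 73.4 and 3.05 CPM at 1 month and 100.3 and 93.9 at 1 year. WT 1 month replicate 3 was far below the other 4 WT libraries for Hnrnpa3, whereas Gm6793 in that library was at the level of the other 1 month libraries.

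Pisd-ps1 (GRCm38 chromosome 11, 3125904 to 3131004), a transcribed pseudogene of the phosphatidylserine decarboxylase gene Pisd, stood at 12.1, 7.70 and 9.11 CPM at 1 month and 39.5 and 59.1 at 1 year. It rose by 2.35 ± 0.23 (edgeR adjusted p = 0.00407). The copy written PISD, on the unplaced scaffold JH584304.1, was at 77.7, 66.4 and 68.4 against 328 and 497 CPM and rose by 2.54 ± 0.25 (edgeR adjusted p = 0.00642). In het the copies rose by 2.03 ± 0.23 and 2.12 ± 0.24. Pisd itself, at 49.8, 53.3 and 28.4 against 53.9 and 43.6 CPM, overlapped between the ages. Pisd-ps1, PISD and Gm6793 kept their calls without each of the 5 WT libraries in turn, as did Gm43796.

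Gm43796 (GRCm38 chromosome 17, 24163865 to 24186287) held 5, 0 and 1 counts at 1 month and 125 and 119 at 1 year, and it rose in WT (edgeR adjusted p = 0.00314). It overlaps Atp6v0c, a subunit of the vacuolar proton pump, and Tbc1d24. Atp6v0c held 5841, 5069 and 7325 counts at 1 month and 4512 and 3113 at 1 year, and Tbc1d24 held 1864, 1377 and 1770 against 1334 and 1359. Where counting does not use strand, reads of overlapping genes cannot be told apart. In het Gm43796 was at or under 0.0803 CPM in every library at both ages.

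Lrch4 (GRCm38 chromosome 5, 137629121 to 137641099), which encodes a protein with leucine-rich repeats, fell by 2.26 in WT (SE 0.35, edgeR adjusted p = 0.0394). The call was lost without replicate 1 at 1 month or either 1 year library (edgeR adjusted p up to 0.211). Its counts were 215, 108 and 103 at 1 month and 20 and 33 at 1 year. The overlapping gene Gm20605 (137629175 to 137642899, same strand) held 50, 64 and 157 counts at 1 month and 227 and 199 at 1 year. The libraries with more Gm20605 held less Lrch4. Summed over the pair and divided by the library total alone, the level was 16.6, 12.5 and 15.1 CPM at 1 month and 18.3 and 16.9 at 1 year, slightly higher at 1 year. Lrch4 and Gm20605 share 71.7% of the 50-base stretches of Lrch4. In het, Lrch4 was at 0.16 ± 0.31 (edgeR unadjusted p = 0.000214 for the difference between the genotypes, adjusted p = 0.745).

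**Figure D5:**
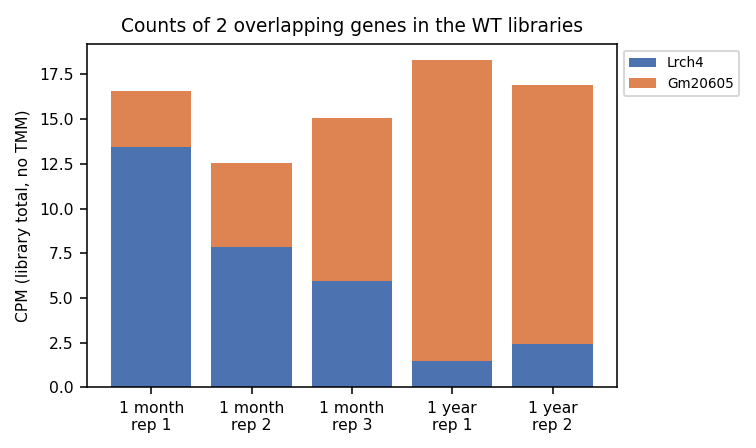
CPM over the library total (no further scaling) of the overlapping genes Lrch4 (blue) and Gm20605 (orange) in the 5 WT libraries, stacked from 0. Lrch4 takes the smaller share in both 1 year libraries, while the summed height changes less, from 12.5 to 16.6 at 1 month and 16.9 to 18.3 at 1 year.

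The remaining genes that rose share little sequence with others. Galnt13, which starts O-linked glycans on neuronal proteins (GRCm38 chromosome 2, 54436317 to 55118309), stood at 12.5, 14.2 and 16.4 CPM at 1 month and 30.7 and 33.6 at 1 year. It rose by 1.16 ± 0.16 (edgeR adjusted p = 0.0211). In het it was at 0.19 ± 0.17, and the difference between the genotypes had an unadjusted p of 0.00132 in edgeR and did not pass over all genes. Rreb1, a zinc finger transcription factor (chromosome 13, 37778400 to 37952002), was at 28.5, 30.2 and 34.7 against 54.7 and 80.4 CPM. It rose by 1.12 ± 0.18 (edgeR adjusted p = 0.0422) and by 0.98 ± 0.18 in het (edgeR adjusted p = 0.0267). Far1, which makes the fatty alcohols of ether lipids (chromosome 7, 113513834 to 113571511), was at 60.1, 77.3 and 65.4 against 114 and 123 CPM and rose by 0.81 ± 0.13 (edgeR adjusted p = 0.0452). Galnt13 lost the call without replicate 1 at 1 month or either 1 year library, and Rreb1 without replicate 1 or 3 at 1 month or replicate 2 at 1 year (edgeR adjusted p up to 0.187 and 0.356). Far1 lost it without any WT library other than replicate 2 at 1 month (edgeR adjusted p up to 0.325).

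The 20 genes next in order of p, 10 on each side, did not pass in edgeR. All 20 passed without het 1 month replicate 1 and in DESeq2, the settings with the most calls. None of the 20 passed without WT 1 month replicate 1 (edgeR adjusted p from 0.0727 to 0.272) or replicate 3 (from 0.135 to 0.248). On the lower side were Sdk1, an adhesion molecule of synaptic layers, at 16.8, 13.8 and 15.4 CPM against 8.20 and 6.93, and Camk4, a calcium-dependent kinase of neuronal nuclei, at 512, 454 and 490 against 319 and 318. Tfrc, the transferrin receptor that imports iron, was at 185, 175 and 165 against 116 and 122 CPM. Its log2 fold change was -0.56 ± 0.10 in WT and 0.00 ± 0.10 in het (edgeR unadjusted p = 0.00147 for the difference). Tnnc1, Prom1, Bcl7a, Hkdc1, Frzb, Cldn11 and the pseudogene Pgam1-ps2 completed the lower side. On the higher side were Ahcyl2, a regulator of ion transport, at 72.1, 77.6 and 72.3 CPM against 193 and 190, and Lin28b, an RNA-binding protein of developmental timing, at 5.37, 4.94 and 6.70 against 13.2 and 11.6. Ahcyl2 was at 1.37 ± 0.22 in WT and -0.48 ± 0.23 in het, whose 1 month libraries ranged from 106 to 202 CPM. The difference between the genotypes had an edgeR unadjusted p of 0.000199 and an adjusted p of 0.745. Ppia, Rpl37, C4b, Fam229b, Sparc, Ntn5 and the pseudogenes Atp5l2-ps and Gstm2-ps1 completed the higher side.

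Across all genes the age differences of the genotypes went the same way more often than not. Of the 16023 genes 72.3% had the same sign in WT and het, and of the 2452 with a WT unadjusted p below 0.05 it was 91.1%. Of the 15 genes called in WT 14 had the same sign in het and 10 were also called there, all 10 in the same direction. In het itself 295 genes rose (1.84%) and 257 fell (1.6%). With 1 library left out in turn those counts ranged from 8 to 1303 and from 7 to 1628, the highest without het 1 month replicate 1 and the lowest without het 1 year replicate 1 for the higher and het 1 month replicate 3 for the lower genes. Pearson's r between the log2 fold changes of the genotypes was 0.463 across genes, which are not independent replicates. The interaction of age with genotype was called for 1 gene (0.00624%) in edgeR and 9 in DESeq2, with 668 at an unadjusted p below 0.05 (4.17%). The labels give no batch or date, so the age of the mice and a batch that went with it cannot be told apart in either genotype.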

How the data were processed

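Stranded mRNA libraries were sequenced, per the labels' protocols. Raw counts per gene were deposited for every library, and the series table holds the same counts (10 of 10 libraries) and the authors' FPKM, which equals count over gene length and library total within 0.1% in each of the 11523 genes that reach 100 counts in 2 libraries. CASAVA, FastQC, HISAT2, StringTie, edgeR and GRCm38 are named by the submitters' processing notes, without versions. Whether counting used strand is not given in the sources here.

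The test on counts was that of edgeR 4.0.16, run in R 4.3.3 (minimum count 10, minimum total 15, TMM scaling, robust quasi-likelihood, 4 group means over all 10 libraries, two-sided, Benjamini-Hochberg over 16023 genes, threshold 0.05). Standard errors are approximate, from the log2 fold change and its F statistic. Replicates of a group differed by 11.2 to 31.6 in chi-square per gene, where sampling noise gives about 1, so none was counted as a copy. An exact permutation test of 2 against 3 libraries cannot go below 0.2 and was not used. In simulated counts for WT 1 year against 1 month (15781 genes) the share of changes recovered was 7.46% at 1.5-fold, 56.7% at 2-fold and 90.9% at 4-fold, and 5 of 108 calls were false. The simulated counts were drawn for each gene on its own, without differences that span a whole library. These shares may therefore not hold for the libraries here.

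Genes named were those called in WT, the 10 of next smallest p on each side that average 1 CPM or more and do not overlap, and in each list the 4 of smallest p in a direction at most. Other list members with known roles were chosen once values were known. The members and the 34 gene lists were chosen with earlier results of these data known. Some genes selected by this rule are not reported here but are in every count. Shared sequence was counted as 50-base stretches of GENCODE M21 transcripts. Alternatives were other scalings, filters, DESeq2 1.42.0, limma 3.58.1 on log2 FPKM with pseudocounts of 1 and 0.1, either genotype alone, replicate numbers as a block, and omission of single libraries. A correction for gene length and the counts per list were added after seeing the data.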

Additional observations from a re-analysis of the deposited data

Results flagged for a closer look

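The difference between the age effects of WT and het was tested for every gene, and 1 gene passed (edgeR adjusted p below 0.05 over 16023 genes). No other gene passed in edgeR, where 668 had an unadjusted p below 0.05. Among the genes described, those with the smallest unadjusted p for this difference were Ahcyl2 (0.000199), Lrch4 (0.000214) and Galnt13 (0.0013).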

How the results depend on the processing

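Counts of called genes depended on the setting. The named genes were chosen by small p in these same libraries, so their directions could hardly reverse under an alternative. Of 714 log2 fold changes of named genes under an alternative 0 reversed, 544 kept their side of the threshold, 90 passed it and 80 lost it. Of 714 list medians in WT 40 moved by more than the SD of the list's mean level between replicates. Medians near 0 changed sign: immediate early genes stood at -0.10 without WT 1 year replicate 1, and collagen genes at 0.02 without WT 1 month replicate 1. In WT, against 9 higher and 6 lower genes, the filter of 1 count in 2 libraries gave 16 and 13, DESeq2 115 and 125 and the WT libraries alone 49 and 30. limma called 2 lower genes with a pseudocount of 1 and 3 with 0.1. In het, against 295 and 257, DESeq2 gave 577 and 795 and the het libraries alone 23 and 9. The lower genes in het were 107 with library size only, 541 with the filter of 1 count, and 99 and 86 with limma at pseudocounts of 1 and 0.1. The interaction gave 9 genes in DESeq2 and 3 and 2 in limma. With 1 library left out the counts ranged in WT from 4 to 170 higher and from 3 to 207 lower, in het from 8 to 1303 and from 7 to 1628, and for the interaction from 1 to 7. The causes were not tested.

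The replicate numbers were tried as a block, which gave 4 higher and 3 lower genes in WT and 6 and 7 in het. Across genes, the deviations of WT libraries from their group mean correlated at 0.0315 and 0.0451 between libraries of the same number. With 2 libraries at 1 year these deviations are equal and opposite. Each value thus has a mirror image of opposite sign, and the check can say little about pairing. The labels do not say that the numbers pair the libraries. With 3 libraries against 2, a change of 1.5-fold was mostly missed in simulated counts.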
